A study of Mus musculus with 63 samples.

Results

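The expression of 10 transcription factor genes that specify enterocytes and intestinal region was examined across the RNA-Seq count tables of this study of the Mediator kinases CDK8 and CDK19. The genes were taken by their symbols, Hnf4a, Hnf4g, Cdx1, Cdx2, Gata4, Gata6, Klf4, Klf5, Maf and Creb3l3, from the 54752 genes counted in each table, and every one of the 10 was present once in all 4 tables. A total of 57 mouse libraries in 19 groups of 3 could be assigned. Small intestinal organoids were 3-dimensional cultures of epithelium in Matrigel. All were on the C57BL/6 strain, and VillinCreERT2 is a tamoxifen-inducible Cre recombinase driven by the Villin promoter, which is active in intestinal epithelium.

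The 5 organoid lines were collected 7 days after 4-hydroxytamoxifen (4-OHT, 100 nM for 24 hours) and were VillinCreERT2, C57BL/6 without Cre, CDK8iIEC-KO (VillinCreERT2; Cdk8 fl/fl), Cdk8 fl/fl/Cdk19-/- without Cre, and CDK8iIEC-KO/Cdk19-/- (VillinCreERT2; Cdk8 fl/fl; Cdk19 ko/ko). A separate line of the last genotype, called the Cdk19-/- line where it is set beside other settings, was given EtOH vehicle or 4-OHT and collected at days 3, 5, 7 and 10, and at day 10 also after culture in Wnt3-conditioned medium (Wnt3-CM). Organoids with VillinCreERT2 and Cdk8 fl/fl that were Cdk19 ko/D173A (Cdk19 D173A/-), whose remaining Cdk19 allele encodes a kinase-dead protein, were given EtOH or 4-OHT for day 7. In these last 3 settings the EtOH controls already lacked Cdk19 or its kinase activity, so that 4-OHT adds the loss of CDK8. Intestinal epithelial cells (IECs) came from VillinCreERT2 and CDK8iIEC-KO/Cdk19-/- mice 14 days after the last of 5 tamoxifen injections (80 mg/kg). Sample names in the tables showed 1 line number for each organoid group. Differences between groups therefore also include any difference between lines, and p-values measured the spread between cultures of a line. No line without floxed Cdk8 was in the time course, so an effect of 4-OHT itself and the loss of CDK8 cannot be told apart there.

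Enterocytes are the absorptive cells of the villus, and their gene program is held by factors with overlapping roles. HNF4A and HNF4G are nuclear receptors that together activate brush border and lipid handling genes. CDX1 and CDX2 are caudal homeobox factors that set intestinal identity. GATA6 is a zinc finger factor present along the small intestine, whereas its paralog GATA4 is restricted to the proximal part, where it maintains jejunal gene expression and represses ileal bile acid transport genes. KLF4 is a Kruppel-like factor of differentiated cells that is needed for goblet cell maturation, and KLF5 is its relative of the proliferating crypt. MAF (c-MAF) is a bZIP factor of villus enterocytes, and CREB3L3 (CREB-H) is a membrane-bound bZIP factor of enterocytes and liver that activates apolipoprotein genes.

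In the annotation of the tables' build (mm10, GENCODE vM21), Hnf4a spans chr2:163506808-163572910, Hnf4g chr3:3508030-3658052, Klf4 chr4:55527143-55532466, Cdx2 chr5:147300805-147307270, Maf chr8:115682942-115707794, Creb3l3 chr10:81084324-81098874, Gata4 chr14:63198922-63271692 and Klf5 chr14:99298691-99315036. Counts are summed over all exons of a gene, so transcripts from alternative starts were not separated. This concerns Hnf4a, which has a distal and a proximal start, and the windows at both are shown because its counts add them up. The outer Creb3l3 start is shown because the response of this gene turned from lower to higher over the time course. The windows run from 250 bases before to 50 bases after each start, are 5′ to 3′ on the gene's strand, and were taken from RefSeq (GRCm38.p6). Capitals mark a match to AGATAA, the GATA motif, on either strand.
Hnf4a, chr2:163506607-163506906, plus strand: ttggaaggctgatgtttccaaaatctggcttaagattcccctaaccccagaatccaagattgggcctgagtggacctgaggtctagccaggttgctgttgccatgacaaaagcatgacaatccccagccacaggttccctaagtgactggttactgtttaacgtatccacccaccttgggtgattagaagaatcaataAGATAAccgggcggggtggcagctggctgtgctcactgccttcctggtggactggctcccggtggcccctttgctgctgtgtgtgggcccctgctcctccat
Hnf4a, chr2:163546905-163547204, plus strand: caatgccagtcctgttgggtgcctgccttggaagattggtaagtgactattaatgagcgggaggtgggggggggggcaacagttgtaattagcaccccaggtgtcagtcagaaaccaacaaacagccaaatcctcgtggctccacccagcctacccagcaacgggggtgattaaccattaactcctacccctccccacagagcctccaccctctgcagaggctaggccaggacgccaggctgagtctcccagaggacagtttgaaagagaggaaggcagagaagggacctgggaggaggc
Creb3l3, chr10:81098823-81099122, minus strand: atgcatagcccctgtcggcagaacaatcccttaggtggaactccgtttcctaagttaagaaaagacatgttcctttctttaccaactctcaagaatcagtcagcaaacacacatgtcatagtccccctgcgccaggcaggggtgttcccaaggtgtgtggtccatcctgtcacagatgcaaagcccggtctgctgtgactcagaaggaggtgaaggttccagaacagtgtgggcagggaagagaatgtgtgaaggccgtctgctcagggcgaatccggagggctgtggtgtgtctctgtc

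Motifs were searched on both strands, as shares of the 32851 windows in the promoter table. The HNF4 motif CAAAGTCCA was in 0.475% of windows. The CDX motif TTTATNG was found in 10.9% of them, the GATA motif in 11.2%, the KLF motif CCACACCC in 3.56% and the CREB3 motif TGACGTG in 2.01%. None of these motifs contains another. Windows were found for 4 of the 8 members with coordinates given here (Hnf4a, Klf4, Cdx2 and Creb3l3). In the 6 windows of these genes 2 matches were found. A GATA motif stood at position -52 of the distal Hnf4a start and another at -138 of the inner Creb3l3 start (chr10:81092542-81092841, minus strand), which is not printed. The outer Creb3l3 window held 0. A match in letters is no evidence of binding.

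Library totals ranged from 15485959 to 32909565 counts. The summed level of 6 epithelial markers was 4951 to 10545 CPM (counts scaled to a common library size by TMM) in all libraries, so epithelial markers were present in every library. In the organoids, 10 immune markers summed to at most 1.5 CPM (Cd8a was at 0 in every organoid group), against 1660 to 2998 CPM in the IECs. Counts of the targeted genes, summed over all exons, gave no check of the deletion of a part of a gene. Mean Cdk8 was 75.6 ± 4.62 CPM in VillinCreERT2 and 66.3 ± 1.08 CPM in CDK8iIEC-KO/Cdk19-/- organoids (SD, n = 3), and mean Cdk19 was 28.1 ± 0.946 and 27.7 ± 0.101 CPM. The means of all 19 groups were 36.9 to 80.6 CPM for Cdk8, with the highest in CDK8iIEC-KO organoids (80.6 ± 2.59 CPM), and at day 10 of the time course Cdk8 was at 55.7 ± 1.63 CPM with EtOH and 55.7 ± 2.14 CPM with 4-OHT. For Cdk19 the group means were 16.6 to 58.4 CPM. The 4 enteroendocrine markers summed to 160 to 769 CPM in the 5 lines, the D173A organoids and the IECs, but to 0.0506 to 1.08 CPM in the time course and 0.0486 to 0.263 CPM in Wnt3-CM, EtOH libraries included. In these bulk libraries, fewer cells of a type and less RNA per cell cannot be told apart.

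Scaled by exon length, the members covered a wide range of levels. In VillinCreERT2 organoids Hnf4a was the highest at 286 ± 12.1 CPM per kb (SD, n = 3), followed by Cdx1 at 176 ± 3.90, Hnf4g at 115 ± 7.46, Klf5 at 99.7 ± 5.50, Creb3l3 at 89.7 ± 9.26 and Cdx2 at 84.6 ± 2.31 CPM per kb. Klf5 and Creb3l3, and Creb3l3 and Cdx2, differed by less than the sum of their SDs. Gata4 stood at 59.7 ± 6.48, Klf4 at 34.1 ± 6.36, Gata6 at 24.1 ± 0.756 and Maf at 2.97 ± 0.370 CPM per kb. The proximal factor Gata4 was thus well above its pan-intestinal relative Gata6 in this line, and in every one of the 19 groups its mean per kb was higher than that of Gata6.

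In VillinCreERT2 IECs, whose table was scaled on its own, the order was different. Hnf4a was at 238 ± 5.05 CPM per kb and Creb3l3 at 199 ± 13.2, followed by Hnf4g at 137 ± 14.6, Klf4 at 112 ± 12.8, Cdx2 at 105 ± 4.41 and Cdx1 at 90.5 ± 2.10 CPM per kb. Klf5 was at 79.0 ± 4.41, Gata4 at 69.1 ± 1.79, Maf at 63.5 ± 5.95 and Gata6 at 26.0 ± 0.965 CPM per kb. Hnf4g and Klf4, Klf4 and Cdx2, and Gata4 and Maf differed by less than the sum of their SDs. Maf read 523 ± 49.1 CPM in these IECs and between 6.80 and 70.3 CPM in all organoid libraries. Klf4 read 340 ± 39.0 CPM in the IECs and 36.8 to 138 CPM in the organoids. Gata4 read 269.8 ± 6.98 CPM in the IECs and 233 ± 25.3 CPM in the organoids of the same genotype. The higher Maf and Klf4 readings came with the immune markers given above and with 7 goblet cell markers that summed to 12508 to 14859 CPM in these IECs and 3616 to 3773 CPM in the organoids. Their part in the readings was not tested.

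**Figure D1:**
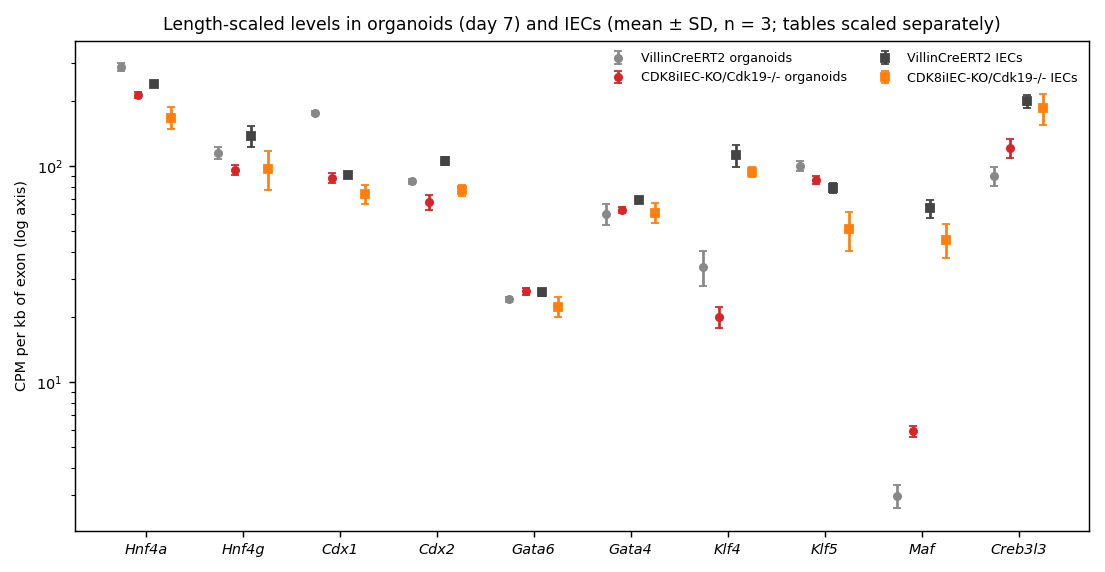
Level of each member per kb of exon (log axis) in VillinCreERT2 and CDK8iIEC-KO/Cdk19-/- organoids (circles, day 7) and IECs (squares), as mean and SD of 3 libraries; the organoid and IEC tables were scaled separately. Maf sat at 2.97 CPM per kb in VillinCreERT2 organoids and 63.5 in VillinCreERT2 IECs, while Gata6 stayed between 22.3 and 26.2.

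To ask what the loss of CDK8 alone did, CDK8iIEC-KO organoids were compared with VillinCreERT2 organoids. Maf and Klf4 fell, and the remaining members did not pass the cutoffs, which were over 1.5-fold at an adjusted p under 0.05 (edgeR quasi-likelihood test, Benjamini-Hochberg adjustment over all genes tested). Over all 15125 genes tested, 7.23% passed, and 2 of the 10 members did. Maf was at 23.4, 27.9 and 22.1 CPM in the VillinCreERT2 libraries and at 12.6, 13.2 and 11.9 CPM in the CDK8iIEC-KO libraries. The groups did not overlap, beside 44.9% of all genes tested, and Maf was 1.95-fold lower (log2 fold change -0.96, SE 0.09, adjusted p = 1.97e-08). Klf4 was at 102, 124 and 85.6 CPM in VillinCreERT2 and 63.3, 65.7 and 65.5 CPM in CDK8iIEC-KO libraries. It was 1.61-fold lower (log2 fold change -0.68, SE 0.11, adjusted p = 0.000149), but without VillinCreERT2 replicate 2, its highest library, the value was -0.54 and no longer past 1.5-fold. Creb3l3 had an adjusted p of 0.000752 at a log2 fold change of -0.42, and the proximal factor Gata4 one of 0.00223 at 0.25, both within 1.5-fold. The pan-enterocyte factors Hnf4a, Cdx2 and Gata6 were at -0.02, 0.08 and 0.0031 (adjusted p = 0.835, 0.292 and 0.97). Hnf4g, Cdx1 and Klf5 were lower in all 3 libraries, at -0.29, -0.20 and -0.15 (adjusted p = 0.161, 0.0211 and 0.0346), inside 1.5-fold. Beside these values, the 7 goblet cell markers summed to 3616 to 3773 CPM in VillinCreERT2 and 2584 to 2747 CPM in CDK8iIEC-KO libraries, with 3 of 7 called lower, and their part in the Klf4 reading was not tested.

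The loss of CDK19 alone was addressed by comparing Cdk8 fl/fl/Cdk19-/- with C57BL/6 organoids. By edgeR, 5.25% of all genes tested passed the cutoffs and 0 of the 10 members did, with 4 members at an unadjusted p under 0.05, beside 27.8% of all genes, and 0 called by DESeq2. The largest differences were in Hnf4g, with a log2 fold change of 0.33 (SE 0.15, adjusted p = 0.175), Klf4 with 0.32 (SE 0.11, adjusted p = 0.0717) and Maf with -0.30 (SE 0.08, adjusted p = 0.0132). Hnf4g ranged from 158 to 251 CPM in the C57BL/6 and from 222 to 301 CPM in the Cdk8 fl/fl/Cdk19-/- libraries, so the groups overlapped.

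Combined loss was addressed by comparing CDK8iIEC-KO/Cdk19-/- with VillinCreERT2 organoids. Cdx1 and Klf4 fell, Maf rose, and both GATA factors stayed within 1.5-fold. Of all genes tested 19.4% passed the cutoffs, and 3 of the 10 members did. Cdx1 was at 304, 315 and 303 CPM in VillinCreERT2 and 162, 151 and 147 CPM in CDK8iIEC-KO/Cdk19-/- libraries, a 2.00-fold lower level with no overlap (log2 fold change -1.00, SE 0.07, adjusted p = 3.12e-12). Of all genes tested, 59.8% did not overlap in this comparison. Maf was at 50.3, 50.6 and 45.2 CPM in the latter, 1.99-fold higher than in VillinCreERT2 (log2 fold change 0.99, SE 0.08, adjusted p = 2.98e-10). Klf4 was at 64.0, 66.1 and 53.4 CPM, 1.70-fold lower (log2 fold change -0.77, SE 0.11, adjusted p = 1.87e-05).

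The other pan-enterocyte factors were separated by smaller amounts that stayed inside 1.5-fold. Hnf4a was at 1349, 1450.1 and 1348 CPM in VillinCreERT2 and 1038, 1045 and 984 CPM in CDK8iIEC-KO/Cdk19-/- libraries (log2 fold change -0.44, SE 0.05, adjusted p = 1.97e-07), and the groups did not overlap. For Cdx2 the log2 fold change was -0.32 (adjusted p = 4.09e-05), for Klf5 -0.21 (adjusted p = 0.00149) and for Gata6 0.12 (adjusted p = 0.0364). Hnf4g was at -0.26 (adjusted p = 0.157). Creb3l3 was at 240, 277 and 295 CPM against 396, 376 and 325 CPM, with a log2 fold change of 0.43 (SE 0.08, adjusted p = 0.000206), higher in all 3 libraries but inside 1.5-fold. Gata4 overlapped between the groups, at 214 to 262 CPM against 237 to 253 CPM, with a log2 fold change of 0.07 (SE 0.06, adjusted p = 0.375). Beside these values, Paneth cell markers summed to 2778 to 2903 CPM and 854 to 890.03 CPM, with 5 of 6 called lower, and stem cell markers to 1177 to 1407 and 425 to 579 CPM, with 4 of 5 called lower. Goblet cell markers summed to 3616 to 3773 and 2225 to 2456 CPM, with 3 of 7 called lower, tuft cell markers to 16.6 to 18.3 and 2.98 to 4.06 CPM, with 4 of 4 called lower, and enteroendocrine markers to 294 to 301 and 188 to 202 CPM, with 3 of 4 called lower. The part of these cells in the values of the members was not tested.

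The control lines themselves differed in the same genes. Between C57BL/6 and VillinCreERT2 organoids, which carry no floxed Cdk8, 26.4% of all genes tested passed the cutoffs and 3 of the 10 members did. Maf was at 45.6, 44.4 and 50.3 CPM in the C57BL/6 libraries, 1.91-fold above VillinCreERT2 (log2 fold change 0.93, SE 0.08, adjusted p = 6.3e-10), a level that overlapped that of CDK8iIEC-KO/Cdk19-/- organoids. Klf4 was at 55.1, 52.0 and 49.8 CPM, 1.99-fold lower (log2 fold change -0.99, SE 0.11, adjusted p = 8.34e-07), which lay below all CDK8iIEC-KO libraries and overlapped those of CDK8iIEC-KO/Cdk19-/- organoids. Goblet cell markers summed to 2623 to 2819 CPM in C57BL/6 libraries, with 3 of 7 called lower than in VillinCreERT2. Paneth cell markers summed to 4947 to 6143 CPM in C57BL/6 and 2778 to 2903 CPM in VillinCreERT2 libraries, with 4 of 6 called higher, enteroendocrine markers to 602 to 663 and 294 to 301 CPM, with 3 of 4 called higher and 1 lower, and 2 of 5 stem cell markers were called higher. The part of these cells was not tested. Cdx1 was at 178, 207 and 225 CPM, 1.51-fold lower (log2 fold change -0.59, SE 0.07, adjusted p = 2.06e-08), and lost its call under upper quartile scaling (-0.51), with a filter of at least 10 counts in every library (-0.58), and without VillinCreERT2 replicate 2 (-0.58) or C57BL/6 replicate 1 (-0.51). Hnf4g was at -0.56 (SE 0.15, adjusted p = 0.00616), inside 1.5-fold, and past it without VillinCreERT2 replicate 1 (-0.62) or C57BL/6 replicate 1 (-0.73). Against the mean of both control lines, Klf4 in CDK8iIEC-KO organoids was at -0.19 (adjusted p = 0.137). In CDK8iIEC-KO/Cdk19-/- organoids Klf4 was then at -0.27 (adjusted p = 0.0314) and Maf at 0.52 (adjusted p = 7.62e-07), both inside 1.5-fold. Cdx1 kept its call, and so did Maf in CDK8iIEC-KO organoids. In that line Cdx1 turned to 0.10 (adjusted p = 0.176) and Hnf4a to 0.16 (adjusted p = 0.0086), Hnf4g was at -0.01 and Klf5 at -0.07 (adjusted p = 0.949 and 0.235), and in CDK8iIEC-KO/Cdk19-/- organoids Hnf4g turned to 0.02 (adjusted p = 0.925).

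CDK8iIEC-KO/Cdk19-/- organoids were also compared with the Cdk8 fl/fl/Cdk19-/- line, which shares the loss of Cdk19. Here 10.6% of all genes tested and 1 of the 10 members passed. Creb3l3 was at 257, 239 and 220 CPM in the Cdk8 fl/fl/Cdk19-/- libraries and was 1.53-fold higher with CDK8 also lost (log2 fold change 0.62, SE 0.08, adjusted p = 8.49e-06), with no overlap, beside 48% of all genes tested. The call was lost without Cdk8 fl/fl/Cdk19-/- replicate 3 (0.56) or CDK8iIEC-KO/Cdk19-/- replicate 1 (0.55). Gata4, at 178, 178 and 182 CPM against 253, 241 and 237 CPM, had a log2 fold change of 0.44 (SE 0.06, adjusted p = 2.19e-06), inside 1.5-fold. Paneth cell markers summed to 3959.5 to 4344 CPM in Cdk8 fl/fl/Cdk19-/- and 854 to 890.03 CPM in CDK8iIEC-KO/Cdk19-/- libraries, with 6 of 6 called lower, and stem cell markers to 773 to 916 and 425 to 579 CPM, with 3 of 5 called lower. Of the tuft cell markers 4 of 4 and of the enteroendocrine markers 3 of 4 were called lower, and the part of these cells in the values of the members was not tested. The lowest Gata4 level of the 5 lines was that of the Cdk8 fl/fl/Cdk19-/- line and the highest that of CDK8iIEC-KO organoids, at 268 to 284 CPM.

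Whether the combined change was larger than both single changes added together was tested as a contrast fitted on all 5 lines. VillinCreERT2 cancels out of it, so that its value rests on the CDK8iIEC-KO/Cdk19-/-, CDK8iIEC-KO, Cdk8 fl/fl/Cdk19-/- and C57BL/6 lines. Of all genes tested 19.6% passed, and 3 of the 10 members did. Maf exceeded the sum by 2.25 on the log2 scale (SE 0.12, adjusted p = 1.25e-13). Its log2 fold change was -0.96 for CDK8 loss, -0.30 for CDK19 loss and 0.99 for both. Creb3l3 exceeded it by 0.82 (SE 0.12, adjusted p = 1.62e-05), and Cdx1 lay below it by -0.72 (SE 0.09, adjusted p = 9.14e-07). Gata4 and Gata6 did not pass, at -0.08 and -0.03 (adjusted p = 0.49 and 0.76). In the same contrast 4 of 6 Paneth cell and 4 of 4 tuft cell markers were called lower, and 3 of 5 stem cell markers lower and 1 higher, and their part was not tested.

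**Figure D2:**
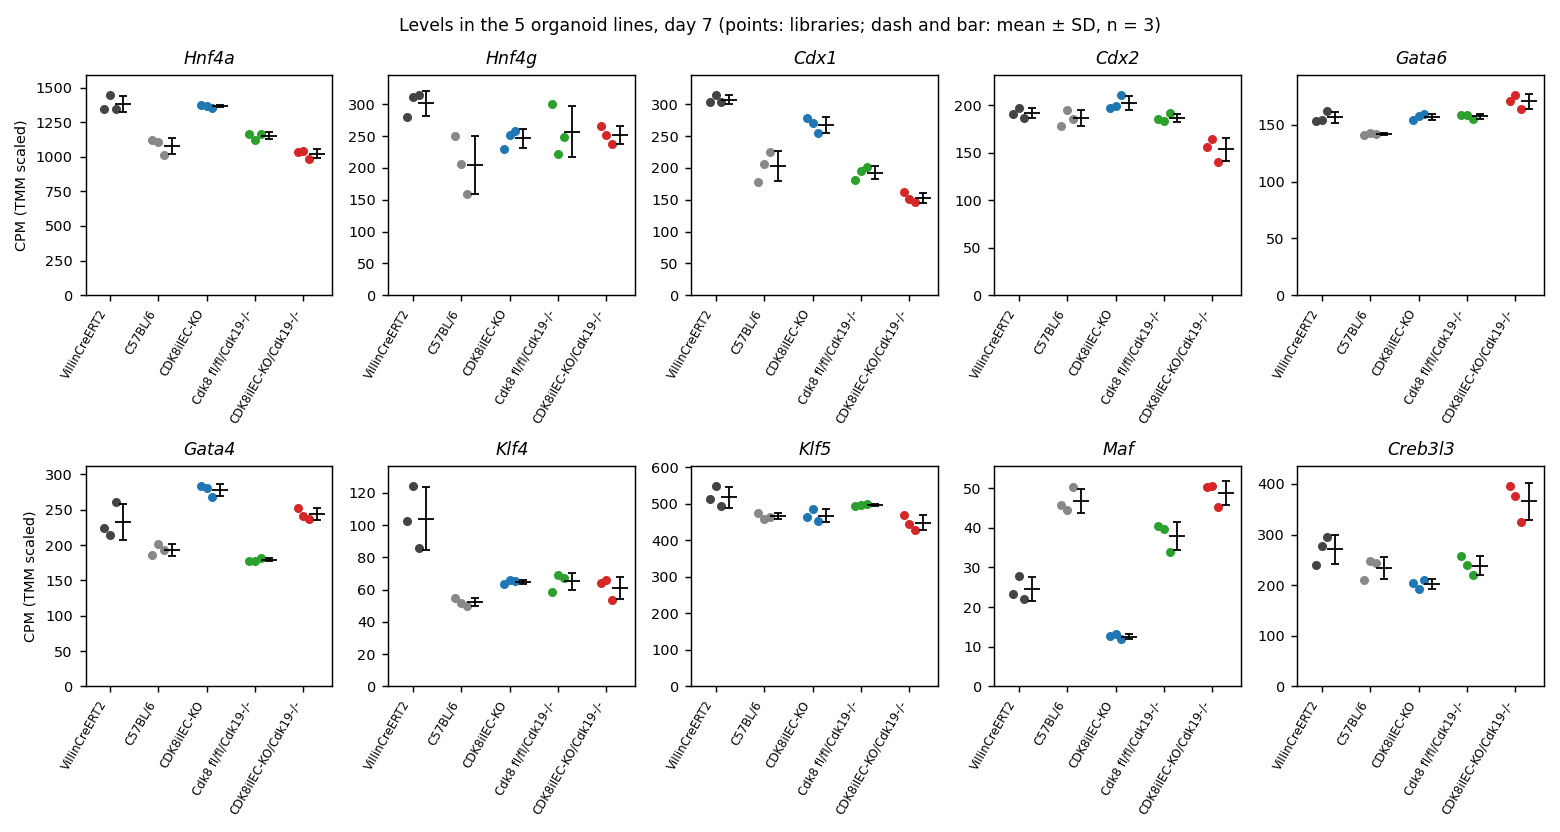
CPM of each member in the 15 libraries of the 5 organoid lines at day 7; points are libraries and the dash with bar is the mean and SD of 3. Maf was lowest in CDK8iIEC-KO libraries (11.9 to 13.2 CPM), and Cdx1 was lowest in CDK8iIEC-KO/Cdk19-/- libraries (147 to 162 CPM).

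The time course followed 1 line after EtOH or 4-OHT and asked when the members responded to the deletion of CDK8. Hnf4g, Cdx1 and Creb3l3 fell at day 3, Maf rose from day 5 on, and Creb3l3 rose at day 10. At day 3, 12.4% of all 15447 genes tested passed the cutoffs and 3 of the 10 members did, each of them lower. Hnf4g was at 206, 178 and 195 CPM with EtOH and 71.7, 78.0 and 77.2 CPM with 4-OHT, a 2.55-fold lower level (log2 fold change -1.35, SE 0.13, adjusted p = 3.9e-08). Cdx1 was at 340, 316 and 319 CPM against 178, 165 and 174 CPM, 1.88-fold lower (log2 fold change -0.91, SE 0.06, adjusted p = 1.84e-12). Creb3l3 was at 134, 113 and 129 CPM against 66.2, 77.4 and 63.2 CPM, 1.82-fold lower (log2 fold change -0.86, SE 0.17, adjusted p = 0.000514). In none of these did the treatments overlap, beside 51.2% of all genes tested that did not overlap. 6 further members had log2 fold changes between -0.53 (Klf5) and -0.16 (Gata6) with adjusted p under 0.05 but inside 1.5-fold, among them Gata4 at -0.28 (adjusted p = 0.00221), and Maf was at 0.07 (adjusted p = 0.798).

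At day 5 the call on Hnf4g and Creb3l3 was gone and Maf rose. Of all genes tested 13.2% passed and 1 of the 10 members did. Maf was at 17.6, 13.3 and 9.96 CPM with EtOH and 31.4, 26.2 and 22.2 CPM with 4-OHT (1.96-fold, log2 fold change 0.97, SE 0.18, adjusted p = 0.000224). Hnf4g was at -0.0043 (adjusted p = 0.982), Gata4 at 0.04 (adjusted p = 0.663), and Cdx1 was still at -0.55 (SE 0.06, adjusted p = 4.54e-08), just inside 1.5-fold and past it without EtOH replicate 3 (-0.60).

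At day 7, 18.3% of all genes tested passed and 1 of the 10 members did. Maf was at 8.88, 11.4 and 9.14 CPM with EtOH and 39.1, 40.5 and 29.6 CPM with 4-OHT, 3.72-fold higher and with the groups well apart (log2 fold change 1.89, SE 0.18, adjusted p = 2.8e-08). Creb3l3 was at 309, 282 and 203 CPM against 421, 364 and 322 CPM, with a log2 fold change of 0.48 (SE 0.16, adjusted p = 0.02) inside 1.5-fold. Without EtOH replicate 1 it was past the cutoffs, at 0.59. Cdx1 was at -0.43 (adjusted p = 9.77e-07), and Cdx2 and Gata4 were at 0.24 and 0.25 (adjusted p = 0.00252 and 0.00457). Klf4, called lower in CDK8iIEC-KO/Cdk19-/- against VillinCreERT2 organoids, was at 0.02 here and overlapped between treatments (adjusted p = 0.826).

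At day 10, 15.8% of all genes tested passed and 2 of the 10 members did, both higher. Maf was at 9.30, 6.98 and 6.80 CPM with EtOH and 20.3, 16.0 and 20.8 CPM with 4-OHT (2.47-fold, log2 fold change 1.31, SE 0.19, adjusted p = 9.39e-06). Creb3l3 was at 228, 198 and 207 CPM against 399, 339 and 320 CPM (1.67-fold, log2 fold change 0.74, SE 0.16, adjusted p = 0.00102). Neither gene overlapped between treatments, beside 53.2% of all genes tested that did not overlap. Klf4 was at 51.4, 56.4 and 54.7 CPM against 40.8, 37.2 and 36.8 CPM (log2 fold change -0.50, SE 0.07, adjusted p = 2.59e-06), and Gata4 at 141, 141 and 146 CPM against 200, 171 and 170 CPM (log2 fold change 0.34, SE 0.07, adjusted p = 0.000248), both inside 1.5-fold. Gata6, Cdx2 and Klf5 had log2 fold changes of 0.11, 0.02 and -0.01 (adjusted p = 0.155 or more).

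The change of the response between days was tested directly. In the contrast of the day 10 response minus the day 3 response, 26.3% of all genes tested passed and 5 of the 10 members did, each with the response shifted upwards. The differences in log2 fold change were 1.71 for Hnf4g (SE 0.18, adjusted p = 9.68e-08), 1.60 for Creb3l3 (SE 0.23, adjusted p = 1.76e-05) and 1.23 for Maf (SE 0.26, adjusted p = 0.000553). Cdx1 shifted by 0.75 (SE 0.09, adjusted p = 2.75e-08), from a lower level at day 3 towards that of EtOH. Gata4 shifted by 0.62 (SE 0.10, adjusted p = 8.12e-06), a call that was lost under upper quartile scaling (0.57), without EtOH day 3 replicate 1 (0.56), without 4-OHT day 3 replicate 3 (0.58) and without 4-OHT day 10 replicate 1 (0.54). Klf4 was the member whose response shifted down, by -0.23 (adjusted p = 0.0754), which did not pass.

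Levels also moved with culture time in the EtOH libraries alone, between day 3 and day 10. Here 38.4% of all genes tested passed and 3 of the 10 members did. Klf5 fell from 932, 827 and 866 CPM to 390.4, 342 and 347 CPM (2.43-fold, log2 fold change -1.28, SE 0.08, adjusted p = 4.4e-14), and Maf fell from 17.3, 20.6 and 15.9 CPM to the day 10 values given above (2.32-fold, log2 fold change -1.22, SE 0.19, adjusted p = 1.03e-05). Creb3l3 rose 1.68-fold (log2 fold change 0.75, SE 0.16, adjusted p = 0.000535). The Maf response to 4-OHT is therefore set against a control that fell. With 4-OHT the Maf mean was 18.8 ± 1.94 CPM at day 3, 36.4 ± 5.93 CPM at day 7 and 19.0 ± 2.62 CPM at day 10 (SD, n = 3). Gata4, Cdx2 and Hnf4g had log2 fold changes of -0.57, -0.53 and -0.55, inside 1.5-fold, and all 3 were past it under upper quartile scaling (-0.66, -0.61 and -0.64).

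**Figure D3:**
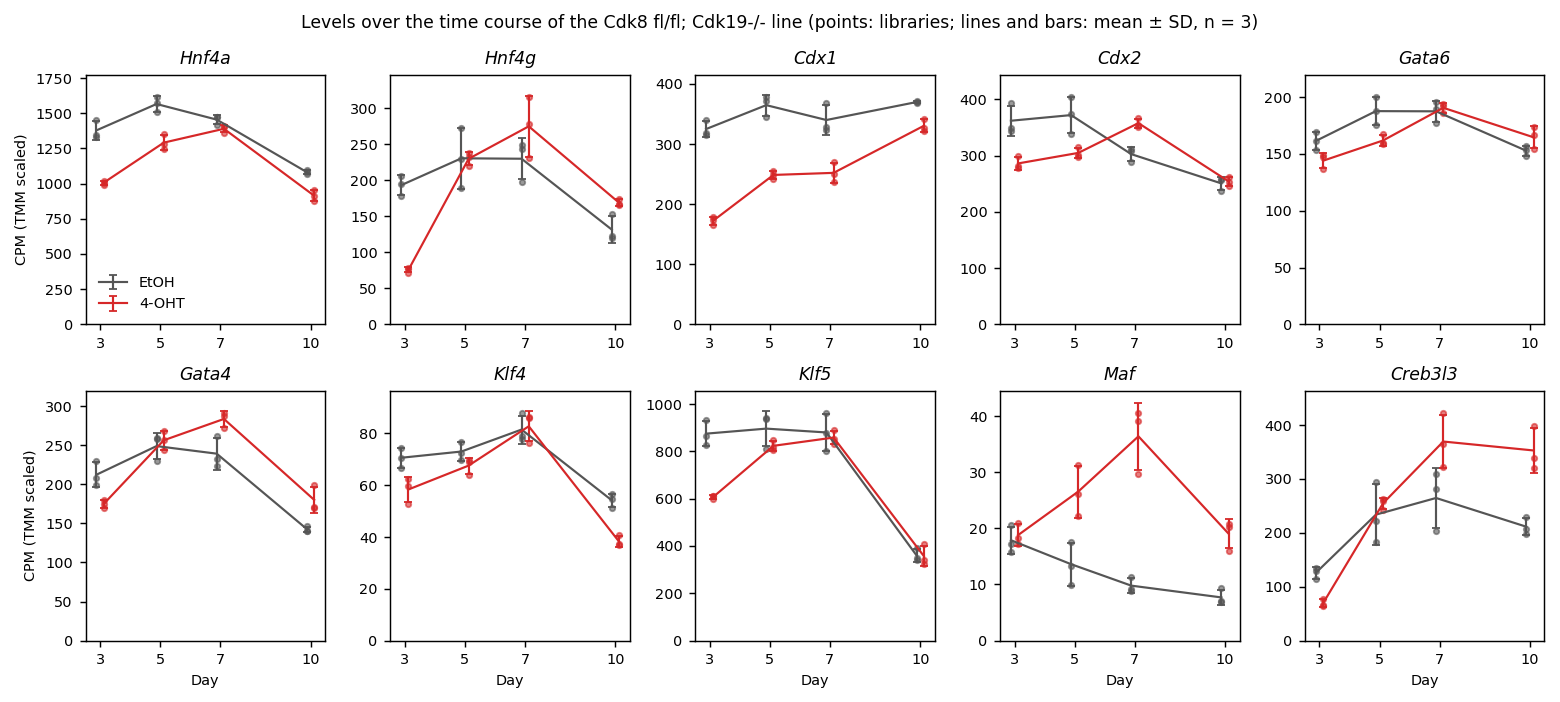
CPM of each member against day in the line of the time course, with EtOH (grey) and 4-OHT (red); points are libraries, and lines with bars are means and SDs of 3. Hnf4g, Cdx1 and Creb3l3 start below EtOH at day 3, and Maf lies above it from day 5 on.

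Markers of other cell types moved in the same libraries. 6 Paneth cell markers summed to 8138 to 8332 CPM with EtOH and 2135 to 2531 CPM with 4-OHT at day 10, with 6 of 6 called lower, and to 3666 to 4257 CPM and 3971 to 4743 CPM at day 3, with 0 of 6 called. 5 stem cell markers summed to 3091 to 3340.2 CPM with EtOH and 1593 to 1807 CPM with 4-OHT at day 10, with 4 of 5 called lower. At day 3 they summed to 1865 to 1882 CPM with EtOH and 2264 to 2339 CPM with 4-OHT, with 2 of 5 called higher. At day 5 Paneth cell markers summed to 4862 to 6051 CPM with EtOH and 2520.3 to 2854 CPM with 4-OHT, and at day 7 to 4879 to 5934 and 1827 to 2039.6 CPM, with 6 of 6 called lower on both days. Stem cell markers summed to 1626 to 2275 and 1018 to 1167 CPM at day 5 and 1945 to 2335 and 688 to 1060.0 CPM at day 7, with 4 of 5 called lower on both days. Of 5 proliferation markers 3 were called lower at day 5 and 4 at day 7, and of 3 tuft cell markers tested 3 were called lower on both days. The part of such shifts in cell makeup in the values of the members was not tested.

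In vivo, IECs of CDK8iIEC-KO/Cdk19-/- mice were compared with VillinCreERT2 IECs. By edgeR, 1.5% of all 15182 genes tested passed the cutoffs and 0 of the 10 members did, while 6 members had an unadjusted p under 0.05, beside 19.9% of all genes, and DESeq2 called 1 member and 949 genes in all. All 10 log2 fold changes were below 0, from -0.64 for Klf5 to -0.10 for Creb3l3, and for 9 members the 2 groups did not overlap. Over all genes tested, 26.8% of genes did not overlap. Hnf4a was at 1168, 1122 and 1158 CPM in VillinCreERT2 and 719, 904 and 792 CPM in CDK8iIEC-KO/Cdk19-/- IECs (log2 fold change -0.51, SE 0.12, adjusted p = 0.0911). Klf5 was at 420.3, 385 and 427 CPM against 208, 319 and 265 CPM (log2 fold change -0.64, SE 0.16, adjusted p = 0.112). Cdx2 was at 249, 236 and 230 CPM against 169, 186 and 166 CPM (log2 fold change -0.46, SE 0.09, adjusted p = 0.07). The spread between the CDK8iIEC-KO/Cdk19-/- mice was wide, and without replicate 2 of that group Hnf4a (-0.61), Klf5 (-0.80) and Maf (-0.64) passed the cutoffs. DESeq2 called Klf5, and so did edgeR with no filter on low counts (-0.68).

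The factors that moved most in the organoids did not pass in the IECs. Maf was at 580, 493 and 497 CPM in VillinCreERT2 and 330.2, 452 and 341 CPM in CDK8iIEC-KO/Cdk19-/- IECs (log2 fold change -0.48, SE 0.15, adjusted p = 0.158), and Creb3l3 overlapped at 556 to 634 CPM against 467 to 649 CPM (log2 fold change -0.10, SE 0.14, adjusted p = 0.699). Gata4 was at 273, 275 and 262 CPM against 209, 249 and 253 CPM (log2 fold change -0.19, SE 0.11, adjusted p = 0.364). The IECs also held RNA of cells outside the epithelium. 7 mesenchyme markers summed to 12.8, 883 and 55.1 CPM in VillinCreERT2 and 966, 602 and 455 CPM in CDK8iIEC-KO/Cdk19-/- libraries, and the immune markers to 1660 to 2998 and 1827 to 2934 CPM, with 0 of 7 and 0 of 10 called and none at 0. Their median log2 fold changes were above 0, at 1.23 for mesenchyme and 1.63 for immune markers. For 2 endothelium markers the median was 2.18 and for the 6 epithelial markers -0.27, with 0 called in either. Goblet cell markers summed to 12508 to 14859 CPM and 5221 to 7490.2 CPM, with 3 of 7 called lower. Of the crypt, Paneth cell markers summed to 3695 to 6049 CPM in VillinCreERT2 and to 931, 2019 and 988 CPM in the CDK8iIEC-KO/Cdk19-/- libraries, with 4 of 6 called lower, and stem cell markers to 745 to 1040.4 CPM and to 359, 512 and 311 CPM, with 2 of 5 called lower. Replicate 2 of the CDK8iIEC-KO/Cdk19-/- IECs, without which 3 members passed, had the highest sum of both in its group. The part of these cells in the lower readings of the members was not tested.

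In Wnt3-CM, which supplies Wnt3, a ligand that the paper describes as Paneth cell-derived, 16.9% of all 13745 genes tested passed the cutoffs at day 10 and 1 of the 10 members did. Klf4 fell, and the values of Maf were lower but inside 1.5-fold. Klf4 was at 121, 131 and 138 CPM with EtOH and 53.7, 64.3 and 54.1 CPM with 4-OHT (2.27-fold lower, log2 fold change -1.18, SE 0.08, adjusted p = 7.82e-11). Maf was at 56.3, 50.0 and 47.0 CPM against 46.6, 38.6 and 33.4 CPM (log2 fold change -0.37, SE 0.11, adjusted p = 0.0104), lower in all 3 libraries but inside 1.5-fold. Creb3l3 was at 250.1, 175 and 201 CPM against 342, 299 and 297 CPM (log2 fold change 0.58, SE 0.12, adjusted p = 0.0023). It lay at the edge of 1.5-fold, and upper quartile scaling (0.62), a filter of at least 10 counts in every library (0.60), or leaving out EtOH replicate 1 (0.73), 4-OHT replicate 2 (0.62) or 4-OHT replicate 3 (0.63) put it past the cutoffs. A replicate block on the numbers in the column names was added after the data were seen, on a pairing read from these same libraries. With it Creb3l3 was past the cutoffs (0.59, adjusted p = 1.31e-09). Paneth cell markers summed to 6848 to 7572 CPM with EtOH and 1889.6 to 2322 CPM with 4-OHT, with 6 of 6 called lower. Goblet cell markers summed to 2829.6 to 3457 and 1916 to 1964 CPM, with 4 of 7 called lower, and the 6 epithelial markers to 10079 to 10539 and 7485 to 8119 CPM, with 2 of 6 called lower. The part of these shifts in the values of the members was not tested. Hnf4g and Cdx2 were at 0.32 and 0.22 (adjusted p = 0.00153 and 0.00724), and Gata4 overlapped between treatments at 0.06 (adjusted p = 0.56).

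The response in Wnt3-CM was compared with that in the standard medium at the same day. Of all genes tested 13.3% differed past the cutoffs, and 2 of the 10 members did. The Maf response was lower in Wnt3-CM by -1.68 on the log2 scale (SE 0.20, adjusted p = 1.34e-05), and the Klf4 response by -0.68 (SE 0.11, adjusted p = 8.27e-05). With EtOH, Maf read 51.1 ± 4.76 CPM in Wnt3-CM and 7.69 ± 1.39 CPM in standard medium (SD, n = 3), and Klf4 130.2 ± 8.53 and 54.2 ± 2.57 CPM. The medium and the table of the libraries cannot be told apart in these levels. The responses of cell type markers differed too, with 4 of 5 stem cell and 4 of 5 proliferation markers higher and 4 of 6 epithelial markers lower (median -0.61) in Wnt3-CM, and their part was not tested. The responses of Creb3l3 (-0.16, adjusted p = 0.522), Hnf4g (-0.04, adjusted p = 0.848) and Gata4 (-0.28, adjusted p = 0.0693) did not differ past the test.

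In Cdk19 D173A/- organoids the response to 4-OHT was measured at day 7. No control with an active Cdk19 allele was in this setting, so the part of the kinase activity was not tested. The libraries of this setting were assigned by treatment from the sample names and to the genotype by elimination. Of all 15457 genes tested 12.3% passed the cutoffs and 1 of the 10 members did. Creb3l3 was at 386, 344 and 359 CPM with EtOH and 543, 588 and 586 CPM with 4-OHT (1.58-fold, log2 fold change 0.66, SE 0.07, adjusted p = 7.76e-05), with no overlap, beside 43.2% of all genes tested. Gata4 was at 241, 198 and 203 CPM against 332, 297 and 314 CPM (log2 fold change 0.55, SE 0.08, adjusted p = 0.00089). It lay inside 1.5-fold, and past it without EtOH replicate 1 (0.63) or 4-OHT replicate 2 (0.59). Maf was at 38.7, 52.3 and 54.0 CPM against 58.1, 70.3 and 69.0 CPM (log2 fold change 0.44, SE 0.13, adjusted p = 0.0337). Klf4 was higher with 4-OHT, at 0.21 (adjusted p = 0.0499), inside 1.5-fold.

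Set against the Cdk19-/- line at day 7, 11.1% of all genes tested had a response that differed past the cutoffs, and 1 of the 10 members did. Maf responded less in Cdk19 D173A/- organoids, by -1.45 on the log2 scale (SE 0.21, adjusted p = 0.000445). The Cdk19 genotype, the line and the set of libraries cannot be told apart in this contrast. Its EtOH level was 48.4 ± 8.37 CPM there and 9.80 ± 1.37 CPM in the Cdk19-/- line (SD, n = 3). Creb3l3 and Gata4 had differences of 0.17 and 0.30 (adjusted p = 0.568 and 0.0774). In the same contrast 2 of 4 enteroendocrine markers were lower, 2 of 7 goblet cell markers higher, and 2 of 6 Paneth cell markers lower and 1 higher. Creb3l3 thus had a positive log2 fold change of 4-OHT against EtOH at days 7 and 10, in Wnt3-CM and in Cdk19 D173A/- organoids. The treated groups did not overlap with their controls in any of these 4 settings, of which 2 passed the cutoffs. Of all genes tested, 49.6%, 53.2%, 56.3% and 43.2% did not overlap in these settings, in that order. Earlier in the time course Creb3l3 was lower at day 3 (-0.86) and overlapped at day 5 (0.13). The day 7 and day 10 libraries of the Cdk19-/- line are those of the time course. Paneth cell markers summed to 3309 to 3529.7 CPM with EtOH and 1685 to 2003 CPM with 4-OHT in Cdk19 D173A/- organoids, with 5 of 6 called lower and 1 higher. Stem cell markers summed to 782 to 889.9 and 424 to 474 CPM, with 4 of 5 called lower, and enteroendocrine markers to 710.0 to 769 and 249.8 to 272 CPM, with 2 of 4 called lower. The part of these cells in the values of the members was not tested.

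**Figure D4:**
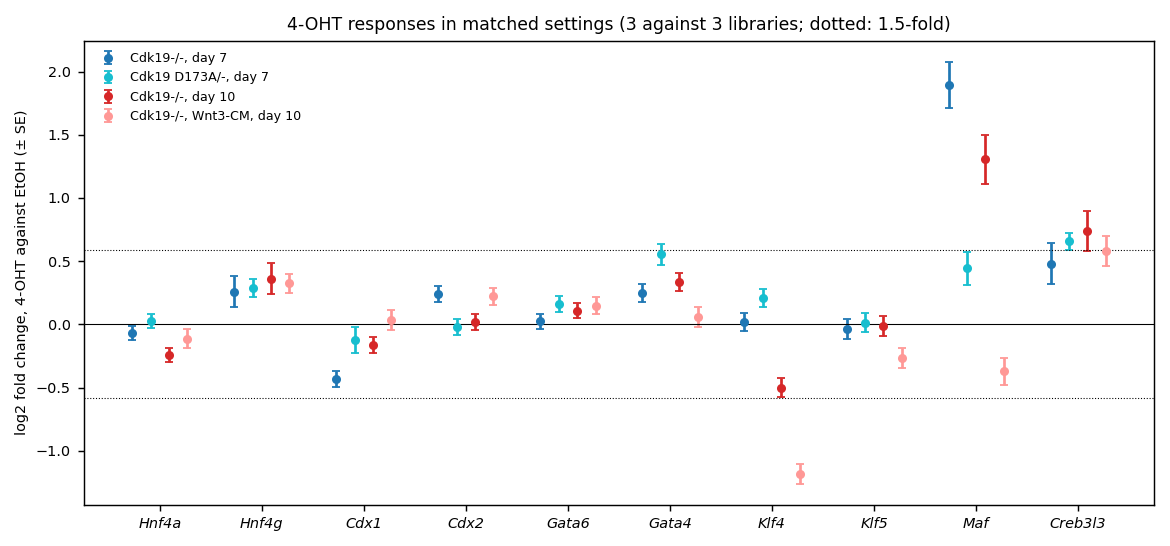
log2 fold change of 4-OHT against EtOH with its SE for each member, in the Cdk19-/- line at days 7 and 10, in Cdk19 D173A/- organoids at day 7 and in Wnt3-CM at day 10; dotted lines mark 1.5-fold. Maf spans 1.89 to -0.37 between settings, and Creb3l3 lies between 0.48 and 0.74.

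Targets and companions of the members were followed as gene lists, by counts of genes past the cutoffs. Of 23 enterocyte brush border and absorption genes, 13 fell and 0 rose at day 3 of the time course, where 12.4% of all genes passed, with the facilitative sugar transporter Slc2a2 at -2.54 (log2 fold change, SE 0.13, adjusted p = 1.1e-14) and the aminopeptidase Enpep at -2.33 (SE 0.18, adjusted p = 1.22e-08). At day 10, where 15.8% of all genes passed, 8 rose and 1 fell, with the protease Mep1a at 1.88 and the fatty acid binding protein gene Fabp2 at 1.44, while Slc2a2 was still at -1.43. The median of the list was -0.90 at day 3 and 0.45 at day 10, against -0.02 and 0.02 over all genes tested. The list thus shifted in the same direction as Hnf4g and Creb3l3 over the days. Among the lines, 11 fell and 0 rose in CDK8iIEC-KO organoids, beside 7.23% of all genes past the cutoffs. In CDK8iIEC-KO/Cdk19-/- organoids 3 rose and 2 fell, beside 19.4% of all genes, which was near the background. Between the control lines C57BL/6 and VillinCreERT2, 0 rose and 6 fell beside 26.4% of all genes. In the IECs 0 of 23 passed, beside 1.5% of all genes, and the median was -0.29. The list summed to 54063 to 58510 CPM in VillinCreERT2 and 38047 to 50375 CPM in CDK8iIEC-KO/Cdk19-/- IECs.

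For region, 12 proximal and 8 distal genes were set beside Gata4. Of 12 proximal genes, 4 rose and 1 fell in CDK8iIEC-KO/Cdk19-/- against VillinCreERT2 organoids, led by Gkn3 (2.49) and the iron reductase Cybrd1 (-1.63), beside 19.4% of all genes past the cutoffs, while Gata4 overlapped. The same comparison of the control lines C57BL/6 and VillinCreERT2 gave 1 higher and 4 lower, led by Cybrd1 (-6.95) and the iron exporter Slc40a1 (-2.65), beside 26.4% of all genes. In CDK8iIEC-KO organoids 2 rose and 3 fell against VillinCreERT2, beside 7.23% of all genes, and in the IECs 0 rose and 2 fell (Gstm3 at -1.49 and Cyp2b10 at -0.84), beside 1.5%. At day 3 of the time course 1 rose and 7 fell, beside 12.4% of all genes, and at day 10 5 rose and 0 fell, beside 15.8%, with Rbp2, a retinol binding protein gene, at 1.24. In Wnt3-CM 9 of 11 tested rose, beside 16.9% of all genes past the cutoffs, and in Cdk19 D173A/- organoids 6 of 12 rose, beside 12.3%, led by Lct, the lactase gene, at 2.76. Among 7 distal genes tested in the lines, 7 fell in CDK8iIEC-KO organoids, 5 fell in CDK8iIEC-KO/Cdk19-/- organoids and 6 fell in C57BL/6 organoids, each against VillinCreERT2, where 7.23%, 19.4% and 26.4% of all genes passed. The ileal bile acid binding gene Fabp6 was at -4.99, -3.46 and -9.74 in these, so that the VillinCreERT2 line stood apart with 277 to 616 CPM summed over the distal genes against 67.9 to 207 CPM in the other 4 lines. Gata4 was at 214 to 262 CPM in VillinCreERT2 and 178 to 284 CPM in the other lines.

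Of 20 other intestinal transcription factors, 2 rose and 7 fell in CDK8iIEC-KO/Cdk19-/- against VillinCreERT2 organoids, among them Foxa3 (-1.14) and Onecut2 (0.96), where 19.4% of all genes passed. Between the control lines C57BL/6 and VillinCreERT2, 0 rose and 4 fell beside 26.4% of all genes. The medians were -0.33 and -0.31. At day 10 of the time course, 1 rose and 2 fell of 19 tested, with Sox9 at -0.86 and Foxa3 at -0.84, a share near the 15.8% of all genes. Foxa3 also fell in the IECs (-0.84, adjusted p = 0.0453), with Elf3 (-0.63, adjusted p = 0.0453), the 2 of 20 called there beside 1.5% of all genes. Duodenal Pdx1 was at -4.52 in C57BL/6 and -1.91 in CDK8iIEC-KO organoids, each against VillinCreERT2. Of 6 genes that CREB3L3 activates, 3 were expressed highly enough to be tested in organoids. In Cdk19 D173A/- organoids, where 12.3% of all genes passed, Apoa4 (1.62) and Apoa1 (1.11) rose beside Creb3l3, and in Wnt3-CM, where 16.9% passed, Apoa4 (1.55) and Apoa1 (0.73) rose while Cidec fell (-1.17). At day 3 of the time course, where Creb3l3 fell, Apoa1 fell (-1.44) and Cidec rose (1.28) beside 12.4% of all genes past the cutoffs, and at days 5 and 7 0 of 3 passed. In CDK8iIEC-KO/Cdk19-/- against Cdk8 fl/fl/Cdk19-/- organoids, where Creb3l3 rose, 3 of 3 rose (median 0.74) beside 10.6% of all genes past the cutoffs, and between the control lines C57BL/6 and VillinCreERT2 2 of 3 fell beside 26.4%. At day 10 in standard medium 1 of 3 passed beside 15.8% of all genes, Apoa4 at 0.60, a lipoprotein gene that is also on the proximal list.

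The genes whose log2 CPM ran most like that of a member were found by Pearson's r, as a description without a test. Over the 15 line libraries the closest to Gata4 were Mmp17 (r = 0.946), Akr1b8 (r = 0.936) and Gm11545 (r = 0.934). Over the 24 time course libraries the closest to Hnf4g were Ppara (r = 0.986), Ypel2 (r = 0.9765) and Sfxn1 (r = 0.9645). Those closest to Creb3l3 were the fatty acid transporter gene Slc27a4 (r = 0.986), Aldh3a2 (r = 0.9835) and Cyp4f14 (r = 0.9815). Between members, r over the time course was 0.774 for Hnf4g with Creb3l3, 0.849 for Gata4 with Klf5 and -0.554 for Cdx1 with Maf. Over the lines, r was 0.894 for Hnf4a with Cdx1 and -0.850 for Hnf4a with Maf. The libraries share line, day and treatment within a group, so these values follow group means.

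**Figure D5:**
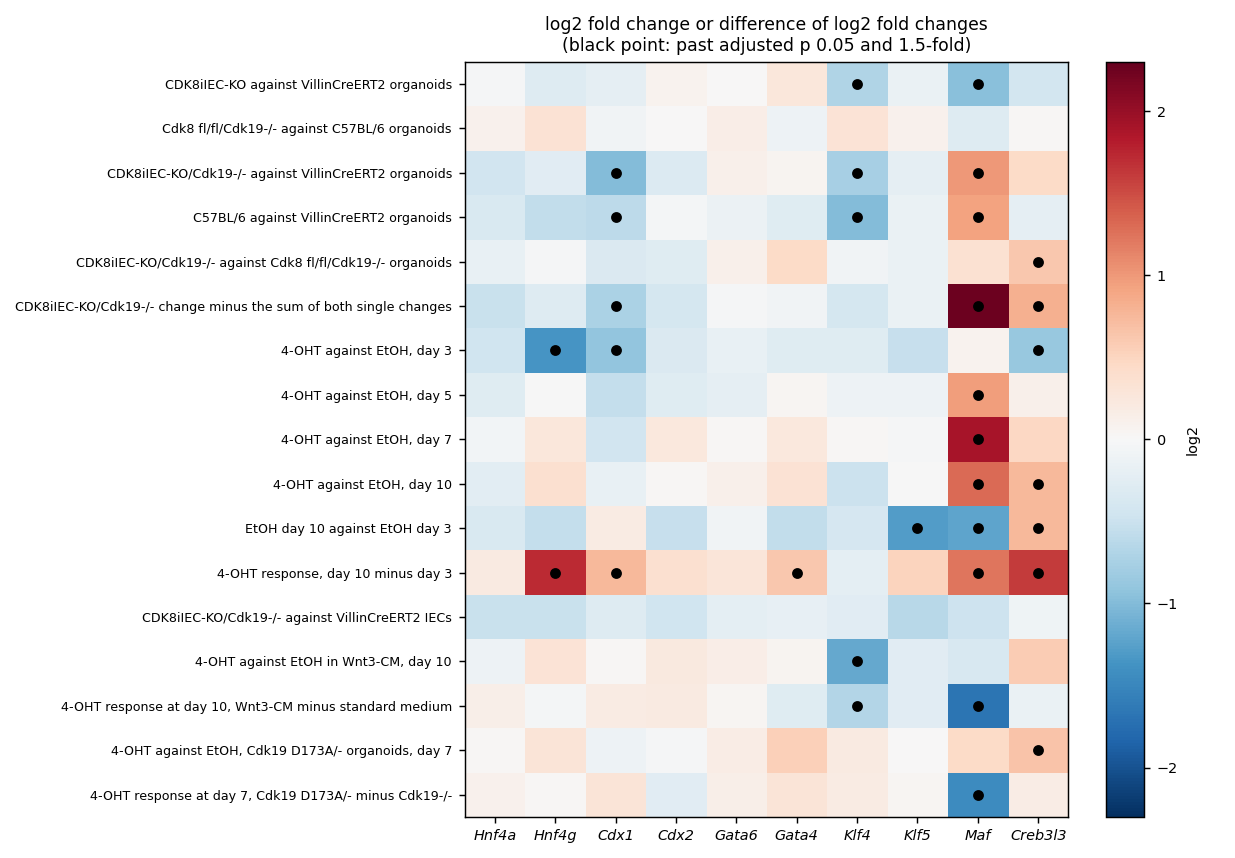
log2 fold change of each member (columns) in every comparison run, or the difference of log2 fold changes for the contrasts of responses (rows); a black point marks an adjusted p under 0.05 with over 1.5-fold. Maf passed in 11 of the 17 comparisons and Creb3l3 in 7, while Hnf4a, Cdx2 and Gata6 passed in 0.

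Across the 17 comparisons run, the members differed in how often they passed. Hnf4a, Cdx2 and Gata6 passed in 0 comparisons, with log2 values from -0.53 to 0.36. They were not unchanged inside 1.5-fold. For 4-OHT at day 3 they were at -0.45, -0.34 and -0.16 (edgeR adjusted p = 1.82e-07, 0.000101 and 0.0359). Under alternatives Cdx2 passed between EtOH days, and Hnf4a passed in the IECs without CDK8iIEC-KO/Cdk19-/- replicate 2. Gata4 passed in 1 and Klf5 in 1, Hnf4g in 2, Cdx1 in 5, Klf4 in 5, Creb3l3 in 7 and Maf in 11. Several comparisons share their libraries, so these counts are not independent. Maf overlaps an antisense gene, Gm15655, over 440 exonic bases, and Gata6 overlaps 1010001N08Rik over 93. The strand used in counting was not given in the sources used here, so reads there cannot be told apart. Gata6 and Cdx1 lie on chromosome 18. Hnf4aos, antisense to Hnf4a without shared exonic bases, read at most 4.35 CPM.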

How the data were processed

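RNA-Seq was performed on 57 mouse libraries in 19 groups of 3, in 4 tables. The raw counts per gene deposited by the authors were made, per the submitters' processing notes, with STAR 2.5.2 and featureCounts (Subread 1.6.3) on mm10, from paired-end reads. The strand setting was not given in the sources used here. Each table was analysed with edgeR 4.0.16 (R 4.3.3): low genes were removed with filterByExpr, libraries were scaled by TMM, and groups were compared by the quasi-likelihood test with Benjamini-Hochberg adjustment over all genes tested. Genes passed when they changed over 1.5-fold at an adjusted p under 0.05. CPM values are on TMM-scaled library sizes within a table, and levels from separate tables are set side by side without a test. The responses in Wnt3-CM and in Cdk19 D173A/- organoids were compared with the time course in a joint fit, as a difference of differences within tables. The SE is the log2 fold change divided by the square root of the F statistic. DESeq2 1.42.0, upper quartile scaling, no filter, a minimum of 10 counts in every library, fits of only the groups compared, a replicate block (in Wnt3-CM and Cdk19 D173A/- organoids on the numbers in the column names, added after the data were seen), the mean of both control lines and leaving out each library in turn were run as alternatives. Tests were checked on simulated data.

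All 10 members were tested and plotted in each comparison. Of other lists, up to 3 genes past the cutoffs with the largest changes were named, and for Gata4, Hnf4g and Creb3l3 the 3 genes most alike by Pearson's r of log2 CPM with a pseudocount of 0.5 CPM. The value of 1 gene that this rule names is not reported here. Members and lists were chosen with earlier results of these data known. Of the gene identifiers, 53861 of 54752 were in GENCODE vM21. Columns of the Cdk19 D173A/- and Wnt3-CM libraries were assigned to a group by the treatment letter in their names, the former to its genotype as the only setting left. A further 6 columns matched no label and were not used, so the IECs with kinase-dead CDK19 were not analysed here. The numbers in the column names were taken to pair the libraries in Wnt3-CM and in Cdk19 D173A/- organoids, though the labels state no pairing. Correlations between the deviations of same-numbered libraries from their group means were 0.124 to 0.254 in Wnt3-CM (3 pairs). In Cdk19 D173A/- organoids they were 0.131 to 0.457, and all were above the 0.1 required. In these settings 6 of 6 and 4 of 6 libraries correlated best with their own number. No replicate pair held identical values or agreed within sampling noise (lowest chi-square per gene 2.405).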

Additional observations from a re-analysis of the deposited data

Results flagged for a closer look

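The response to 4-OHT (log2 fold change of 4-OHT against EtOH) differed between settings in 8 tests of the difference itself (edgeR quasi-likelihood test, n = 3 libraries per group). Between days 3 and 10 of the time course it was higher at day 10 by 1.71 for Hnf4g, 1.60 for Creb3l3, 1.23 for Maf, 0.75 for Cdx1 and 0.62 for Gata4. Hnf4g went from -1.35 to 0.36 and Creb3l3 from -0.86 to 0.74. Between Wnt3-CM and standard medium at day 10 it differed by -1.68 for Maf and -0.68 for Klf4. Between Cdk19 D173A/- and Cdk19-/- organoids at day 7 it differed by -1.45 for Maf. In both of the last settings the EtOH libraries read more Maf than those of the time course, at 47.0 to 56.3 CPM in Wnt3-CM and 38.7 to 54.0 CPM in Cdk19 D173A/- organoids. The part of that starting level in the differences was not tested.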

How the results depend on the processing

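Of 2260 member values recomputed under the alternatives, 2217 kept their side of the cutoffs, of which 2147 also kept their direction and 70 took the other direction without being called. A further 14 lost the call, 29 gained it and 0 changed direction while called. Against the mean of both control lines, 1 member passed in CDK8iIEC-KO and 1 in CDK8iIEC-KO/Cdk19-/- organoids. Between EtOH days 10 and 3, 6 members passed with a minimum of 10 counts in every library and 6 under upper quartile scaling. In Wnt3-CM 2 passed under each of these settings, and in the IECs 1 passed with no filter and 1 by DESeq2. Leaving out 1 library gave 1 to 2 members in CDK8iIEC-KO organoids, 0 to 1 in CDK8iIEC-KO/Cdk19-/- against Cdk8 fl/fl/Cdk19-/- organoids, 2 to 4 between the control lines, 1 to 2 at day 5, 1 to 2 at day 7, 3 to 5 between EtOH days, 4 to 5 for the difference of days, 0 to 3 in the IECs, 1 to 2 in Wnt3-CM and 1 to 2 in Cdk19 D173A/- organoids. The cause was not tested. Over all genes, the IEC comparison called 228 genes, 949 by DESeq2 and 3 to 1566 with 1 library left out.

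The replicate numbers of the labels did not pair the samples: the lowest correlation of same-numbered libraries was -0.113 in the lines, -0.226 in the time course and -0.403 in the IECs, and 6 of 15, 16 of 24 and 0 of 6 libraries correlated best with their own number. With the replicate block, the members past the cutoffs numbered 2 for CDK8 loss, 0 for CDK19 loss, 3 for both, 3 between the control lines, 1 against Cdk8 fl/fl/Cdk19-/- and 3 for the departure from the sum. In the time course they numbered 3, 1, 1 and 2 at days 3, 5, 7 and 10, 3 between EtOH days and 5 for the difference of days, and 0 in the IECs, all as without the block. Over all genes in the IECs, 8 were called with the block and 228 without it. In Wnt3-CM and Cdk19 D173A/- organoids the pairing by the numbers in the column names was read from these same libraries. There this replicate block was added after the data were seen. With it 2 members passed in Wnt3-CM, against 1 without, and 1 in Cdk19 D173A/- organoids, 2 for the difference between media and 1 for that between Cdk19 D173A/- and Cdk19-/- organoids, as without it. Creb3l3 in Wnt3-CM was the 1 member whose call changed.

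The 70 uncalled values of the other direction came from members whose log2 value as reported was at most 0.263 in size. With a minimum of 10 counts in every library the values were Gata6 -0.0064 for CDK8 loss, Cdx2 -0.00078 for CDK19 loss, Hnf4g 0.018 at day 5 and Klf5 0.0020 at day 10. Under upper quartile scaling the values were Cdx2 -0.014 for CDK19 loss, Cdx2 0.047 between the control lines, Gata6 0.023 for the departure from the sum, Hnf4g 0.028 at day 5, Hnf4g 0.0028 for the difference between media, Hnf4a -0.020 and Klf5 -0.033 in Cdk19 D173A/- organoids and Hnf4g -0.0042 for the difference between Cdk19 D173A/- and Cdk19-/- organoids. By DESeq2 the value was Gata6 -0.0090 for CDK8 loss. In fits of only the groups compared the values were Gata6 -0.0083 for CDK8 loss and Hnf4g 0.0039 at day 5. Against the mean of both control lines the values were Hnf4a 0.16 and Cdx1 0.10 for CDK8 loss and Hnf4g 0.018 for the loss of both. With the replicate block the value was Hnf4g 0.0014 at day 5. With 1 library left out, the ranges were for CDK8 loss Gata6 -0.011 to 0.032 and Hnf4a -0.034 to 0.018, for CDK19 loss Cdx2 -0.029 to 0.043, Creb3l3 -0.043 to 0.085 and Cdx1 -0.17 to 0.0064, against Cdk8 fl/fl/Cdk19-/- Hnf4g -0.13 to 0.10 and Klf4 -0.16 to 0.0044, for the departure from the sum Gata6 -0.058 to 0.012 and at day 3 Maf -0.013 to 0.19. They were at day 5 Hnf4g -0.14 to 0.13, Gata4 -0.024 to 0.062 and Creb3l3 -0.036 to 0.32, at day 7 Klf5 -0.10 to 0.020, Klf4 -0.022 to 0.071 and Gata6 -0.015 to 0.044, at day 10 Cdx2 -0.021 to 0.042 and Klf5 -0.12 to 0.052, in the IECs Creb3l3 -0.23 to 0.0039 and in Wnt3-CM Cdx1 -0.069 to 0.12 and Gata4 -0.026 to 0.14. They were for the difference between media Hnf4g -0.16 to 0.044 and Gata6 -0.012 to 0.11, in Cdk19 D173A/- organoids Hnf4a -0.0058 to 0.040, Klf5 -0.047 to 0.053 and Cdx2 -0.060 to 0.015 and for the difference between Cdk19 D173A/- and Cdk19-/- organoids Hnf4g -0.092 to 0.12 and Klf5 -0.025 to 0.11.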

Other observations

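Markers of tuft cells, the chemosensory cells of the epithelium, fell to differing degrees in the settings in which both kinases or their activity were lost. Of 3 tested in the time course, 1 was called lower with 4-OHT at day 3 and 3 at days 5, 7 and 10. Of all genes, 12.4%, 13.2%, 18.3% and 15.8% passed on these days. The 4 tuft cell genes summed to 16.6 to 18.3 CPM in VillinCreERT2 and 2.98 to 4.06 CPM in CDK8iIEC-KO/Cdk19-/- organoids, with 4 of 4 lower beside 19.4% of all genes past the cutoffs. They were led by the kinase gene Dclk1 at -3.19 (log2 fold change, SE 0.20, edgeR adjusted p = 1.39e-12). In Wnt3-CM they summed to 17.8 to 21.3 CPM with EtOH and 1.94 to 2.43 CPM with 4-OHT, and in Cdk19 D173A/- organoids to 39.7 to 43.4 and 9.13 to 11.9 CPM, with 4 of 4 lower in both, beside 16.9% and 12.3% of all genes. In the IECs 2 of 4 fell beside 1.5% of all genes, Dclk1 at -1.95 (SE 0.18, adjusted p = 0.0137) and the channel gene Trpm5 at -1.31 (SE 0.22, adjusted p = 0.0453). The sums also differed between EtOH libraries, at 18.5 to 21.9 CPM on day 3 and 4.31 to 5.83 CPM on day 10.

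Fgf15, an ileal hormone gene, had the largest changes of the distal list in 3 settings with 4-OHT, with log2 fold changes of -2.16 at day 10 (SE 0.32, edgeR adjusted p = 1.12e-05), -4.19 in Wnt3-CM (SE 0.11, adjusted p = 1e-15) and -3.64 in Cdk19 D173A/- organoids (SE 0.14, adjusted p = 1.45e-07). Of the distal genes tested, 2 rose and 2 fell of 6 at day 10, 2 rose and 2 fell of 5 in Wnt3-CM, and 2 rose and 1 fell of 6 in Cdk19 D173A/- organoids, and at day 7 of the time course 4 rose and 1 fell of 6. Over all genes, 15.8%, 16.9%, 12.3% and 18.3% passed in these settings, in that order. Their sum was 72.3 to 80.2 CPM with EtOH and 134 to 156 CPM with 4-OHT at day 10, and 196 to 220.4 and 142 to 155 CPM in Wnt3-CM. Of 5 proliferation markers, 3 fell at day 10 in standard medium, led by Mki67 at -1.33 (SE 0.14, adjusted p = 1.39e-07), whereas 1 rose in Wnt3-CM, the cyclin gene Ccnb1 at 0.71 (SE 0.08, adjusted p = 4.23e-07). The responses differed between the media for 4 of the 5, beside 13.3% of all genes.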
